A study of Homo sapiens with 17 samples.

Results

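Glycolysis and glucose uptake are described here through 36 genes that carry glucose into the cell, split it to pyruvate, turn pyruvate into lactate or hand it to the mitochondrion. They were taken by name from the 60662 genes of the count table, and all 36 were found. RNA-seq had been run on Ishikawa cells, a line from a human endometrial epithelial adenocarcinoma that is used as a model of the endometrial epithelium and expresses the progesterone receptor. All cultures were kept for 24 h in the same medium with charcoal-stripped serum. Control cultures received medium only (n = 3) and vehicle control cultures received Nap and ethanol (n = 3). Nap only cultures received Nap without ethanol (n = 2), and P4 treated cultures received Nap and progesterone (P4, n = 3). The ethanol is listed as 70%, without saying whether that is the stock or the share in the medium. A figure legend of the study gives another percentage. Neither the labels nor the methods define Nap, ethanol is not named in the labels of the P4 treated cultures, and the P4 concentration is not given here because the study's text and the labels differ on it. If the P4 treated cultures lacked ethanol, its absence and the presence of P4 cannot be told apart. Another 6 cultures given recombinant PSAT1, a serine synthesis enzyme, have titles that contradict their column names, so they entered no comparison. The cultures are replicates of a single cancer line, not of donors, and the labels call them biological replicates without saying how they were made.

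Glucose enters epithelial cells through SLC2A carriers and is trapped by hexokinases as glucose 6-phosphate. The 6-carbon sugar is then committed to glycolysis by phosphofructokinase, whose activity is set by fructose 2,6-bisphosphate, and the lower enzymes convert the 3-carbon products to pyruvate with a yield of ATP. Pyruvate is reduced to lactate and exported by monocarboxylate transporters, or it enters the mitochondrion through the MPC carrier and is oxidised by pyruvate dehydrogenase, which the PDK kinases switch off. In the endometrium this pathway is known for its use around implantation, when the epithelium supplies glucose and lactate to the embryo and the stroma takes up more glucose as it decidualises.

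The 11 libraries with a group held 4999521 to 19704493 counts, the fewest in vehicle control culture 1. Epithelial markers were present in all 11 libraries, among them EPCAM at 172 to 215 CPM (counts scaled to the library total as adjusted by TMM), CDH1 at 235 to 334 CPM and PGR, the progesterone receptor, at 18.4 to 144 CPM. MUC1 was low, at 0.601 to 2.97 CPM. Of the stromal markers, COL1A1 reached 32.6 CPM and COL3A1 131 CPM, while DCN did not pass 3 counts in any library. The 2 immune markers together reached at most 1.47 CPM and the 2 endothelial markers 1.54 CPM, with PECAM1 at most at 1 count. Between P4 treated and vehicle control cultures 1 of the 9 epithelial markers was called higher and 6 lower, where 26.6% and 26.5% of all genes tested were. PGR was lower by the most, at a log2 fold change of -1.44 (SE 0.14, edgeR adjusted p = 5.0e-06). PAX8, among the 6, was not called against control cultures (-0.05). The stromal marker COL1A1 was also lower than under vehicle (-0.44, SE 0.11, edgeR adjusted p = 0.00452). The epithelial markers summed to 1270 to 1386 CPM in P4 treated and 1652 to 1678 CPM in vehicle control cultures. The 5 stromal markers summed to 65.9 to 76.2 and 68.5 to 90.9 CPM, the immune markers to 0.152 to 0.429 and 1.15 to 1.47 CPM, and the endothelial markers to 0.172 to 0.381 and 0.442 to 1.05 CPM. The part of these markers in the results was not tested.

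P4 treated and vehicle control cells differed at several steps of the pathway, in both directions. The 3 hexokinase genes were higher and 5 of 6 genes of the lower enzymes, with those of lactate dehydrogenase A and of the lactate exporter SLC16A3, were lower under P4 than under vehicle. The glucose transporters (1 higher, 2 lower) and the genes of pyruvate entry (2 higher, 2 lower) were mixed. Of the 36 members 35 had enough counts to be tested, SLC2A3 being the exception. The edgeR quasi-likelihood test with Benjamini-Hochberg adjustment over all 16540 genes tested called 9 members higher and 16 lower at an adjusted p under 0.05, and left 10 without a call. Of all genes tested, 53.0% were called, 26.6% higher and 26.5% lower, so the share of members called lower was larger than that of all genes and the share called higher was similar. The median log2 fold change was -0.14 over the members and -0.01 over all genes tested. In 27 of the 35 tested members no P4 treated culture overlapped a vehicle control culture, against 60.3% of all genes tested. Past 1.5-fold, or 0.58 on the log2 scale, 6 members were called higher and 9 lower, where 13.3% of all genes tested were called higher and 15.5% lower past that size. These are shares of RNA in bulk cultures, in which fewer cells expressing a gene and less of its RNA per cell cannot be told apart.

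**Figure D1:**
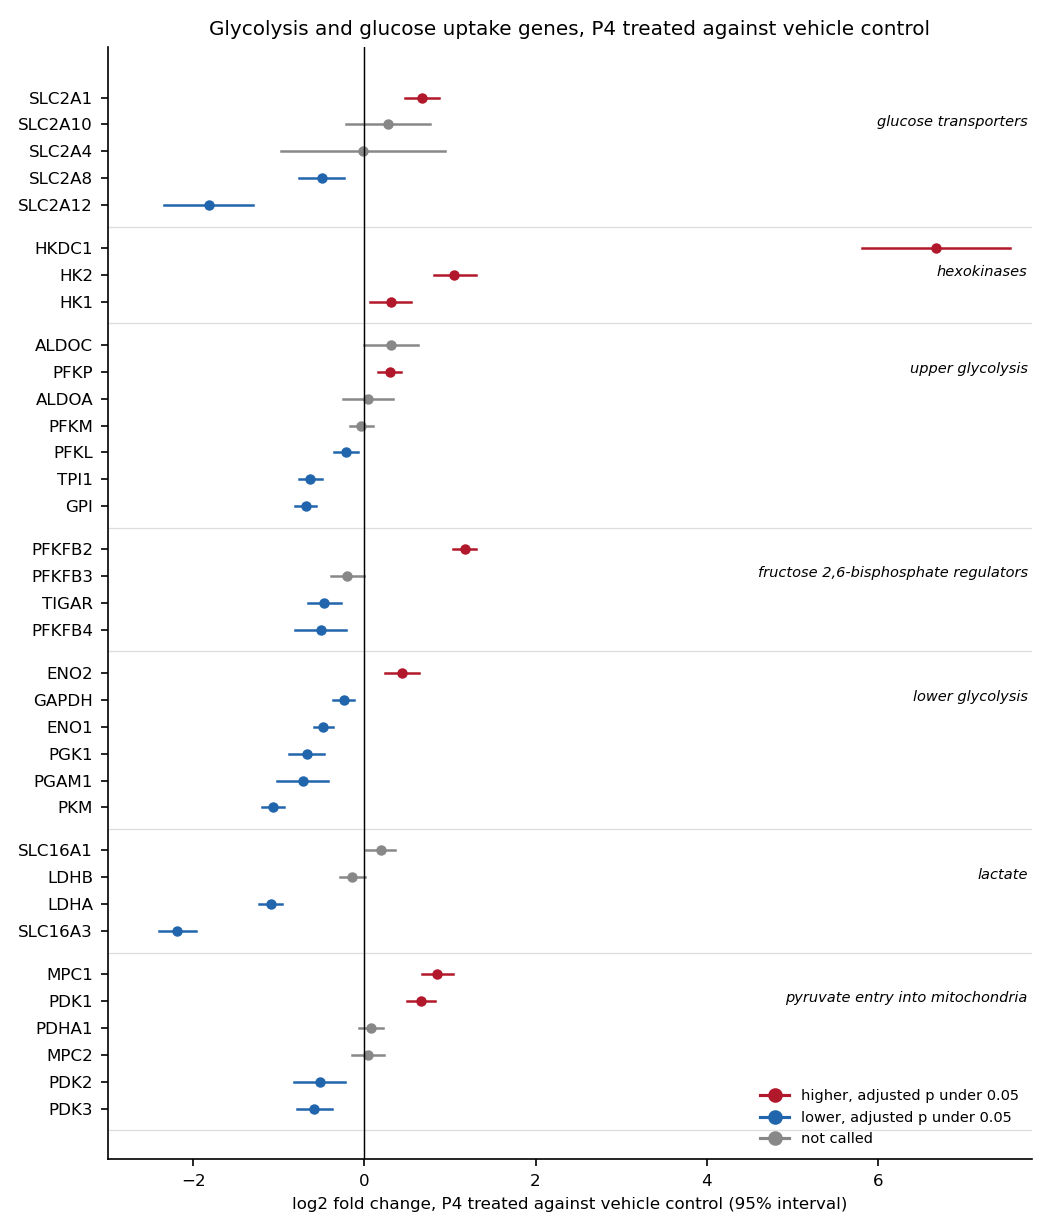
Log2 fold change of the 35 tested members between P4 treated and vehicle control cultures (n = 3 each), with 95% intervals from the edgeR fit, grouped by role. HKDC1 stood furthest to the right at 6.68 and SLC16A3 furthest to the left at -2.19, and 5 of the 6 lower glycolysis genes lay to the left of 0.

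The promoters of the 2 hexokinase genes with the larger increases and of the 2 lactate genes called lower are shown as examples of steps that moved in opposite directions. They were chosen after their values had been seen, and for PFKFB2, which rose more than HK2, no promoter was matched. Each runs from 250 bases before to 50 bases after a transcription start, on the strand of the gene, from RefSeq on GRCh38.p14. Capitals mark ACGTG or GCGTG read on either strand, the core that hypoxia-inducible factors bind, which where it forms CACGTG is also the E-box bound by MYC and by the glucose-sensing Mondo proteins.
HKDC1 promoter, chr10:69220082-69220381, plus strand: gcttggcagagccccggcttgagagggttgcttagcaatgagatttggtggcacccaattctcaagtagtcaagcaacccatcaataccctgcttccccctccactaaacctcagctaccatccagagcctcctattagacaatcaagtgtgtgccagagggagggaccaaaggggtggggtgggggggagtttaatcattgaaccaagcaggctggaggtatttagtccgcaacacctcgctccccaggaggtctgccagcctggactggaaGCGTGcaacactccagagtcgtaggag
HK2 promoter, chr2:74834920-74835219, plus strand: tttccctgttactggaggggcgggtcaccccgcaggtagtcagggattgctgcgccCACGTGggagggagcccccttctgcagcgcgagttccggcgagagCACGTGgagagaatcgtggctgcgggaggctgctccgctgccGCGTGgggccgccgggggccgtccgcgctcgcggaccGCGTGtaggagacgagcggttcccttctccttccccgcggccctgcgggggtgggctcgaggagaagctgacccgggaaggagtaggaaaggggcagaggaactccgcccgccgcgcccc
LDHA promoter, chr11:18394313-18394612, plus strand: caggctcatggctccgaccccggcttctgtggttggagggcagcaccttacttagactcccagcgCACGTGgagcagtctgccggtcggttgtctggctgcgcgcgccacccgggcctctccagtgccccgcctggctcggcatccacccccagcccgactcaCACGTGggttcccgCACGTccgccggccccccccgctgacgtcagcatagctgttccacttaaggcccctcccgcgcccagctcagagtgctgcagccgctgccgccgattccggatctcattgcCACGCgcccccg
SLC16A3 promoter, chr17:82228792-82229091, plus strand: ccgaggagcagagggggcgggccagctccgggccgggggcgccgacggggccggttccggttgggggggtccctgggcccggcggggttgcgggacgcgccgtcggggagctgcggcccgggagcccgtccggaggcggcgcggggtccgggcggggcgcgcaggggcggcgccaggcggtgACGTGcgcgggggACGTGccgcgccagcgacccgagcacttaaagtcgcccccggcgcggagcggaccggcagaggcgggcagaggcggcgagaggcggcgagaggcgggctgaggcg
RefSeq promoters were matched for 32 of the 36 members, with 62 windows in all because several genes have more than 1 start. The core stood in 40 of these windows (64.5%) and in 48.4% of 35116 windows of the same length over all genes. CACGTG stood in 7 of the 62 windows (11.3%), among them those of HK2 and LDHA above, and in 7.26% of all windows. The other start of HK2 and that of LDHA lack CACGTG, and of the 5 windows of SLC16A3 the one printed is among 3 that hold the core. A match is a stretch of letters and not a measured binding site.

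All 3 hexokinase genes were called higher, HKDC1 with the largest increase among the members tested. HKDC1 (ENSG00000156510.13, chromosome 10, 69220303 to 69267559 on GRCh38), which encodes a hexokinase domain protein of low activity, was counted 1, 5 and 4 times in the 3 vehicle control cultures and 216, 502 and 503 times in the 3 P4 treated cultures. These counts corresponded to 0.191, 0.368 and 0.322 CPM and to 20.7, 43.1 and 38.4 CPM. The gene was close to the level of 3 counts without P4, including in control and Nap only cultures at 0.208 to 0.536 CPM, and it was plainly expressed in each P4 treated culture, the lowest being culture 1. The log2 fold change was 6.68 (SE 0.44, edgeR adjusted p = 1.6e-06), with a 95% interval of 5.81 to 7.54 that rests on the 10 counts of the vehicle controls.

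HK2 (ENSG00000159399.9, chromosome 2, 74833981 to 74893359), the mitochondria-bound hexokinase of many cancers and insulin-sensitive tissues, measured 35.2, 34.3 and 38.5 CPM under vehicle and 60.7, 90.2 and 75.9 CPM under P4. All P4 treated cultures lay above all others, with culture 1 again the lowest of them. The log2 fold change was 1.05 (SE 0.12, edgeR adjusted p = 1.9e-05), and reads assigned to a pseudogene named after HK2 came to 4.91% of its own. HK1, the hexokinase of most tissues, which begins just downstream of HKDC1 on chromosome 10, measured 33.5, 42.3 and 39.1 CPM under vehicle and 39.8, 55.4 and 50.2 CPM under P4, so that the groups overlapped. Its log2 fold change of 0.31 (SE 0.12, edgeR adjusted p = 0.0448) lost its call in 6 of 13 alternatives. These were upper-quartile scaling, a minimum of 10 counts in every library, and leaving out vehicle control culture 1 or 3 or P4 treated culture 2 or 3 (edgeR adjusted p of 0.0507 to 0.147).

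Per kilobase of exon, the summed level of the 3 hexokinase genes was 12.1 ± 0.8 RPKM in vehicle controls and 28.2 ± 6.4 RPKM in P4 treated cells (SD, n = 3 each). It was 12.4 ± 0.896 RPKM in controls (n = 3) and 10.4 and 11.5 RPKM in the Nap only cultures. HKDC1 supplied 0.565% ± 0.149 of that sum in vehicle controls and 27.8% ± 4.2 in P4 treated cells, and HK1 went from 50.2% ± 3.27 to 27.6% ± 1.95. HK2 supplied 49.2% ± 3.4 and 44.6% ± 2.44. The exact two-sided permutation test gave p = 0.1 for HKDC1 and HK1, the smallest that 3 cultures against 3 allow, and p = 0.2 for HK2. Over the 22 shares compared in all families the Benjamini-Hochberg adjusted values were 0.138, 0.138 and 0.259, so none could pass 0.05 in this design.

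**Figure D2:**
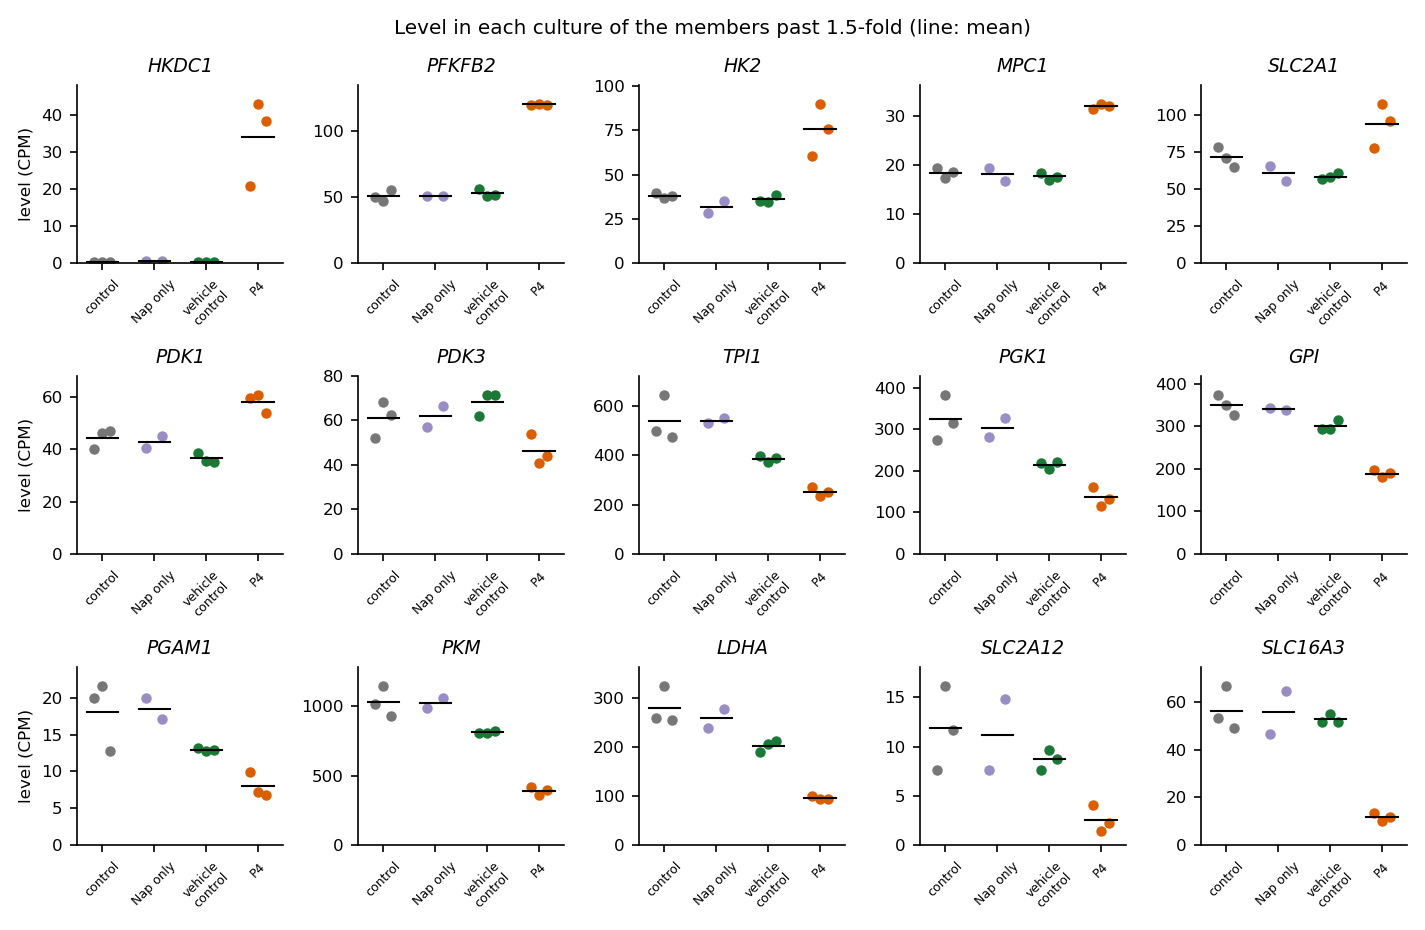
Level in CPM of the 15 members called past 1.5-fold between P4 treated and vehicle control cultures, with a point for each control (3), Nap only (2), vehicle control (3) and P4 treated (3) culture and a line at the mean. In all 15 panels the P4 treated cultures sit apart from the vehicle controls, and PKM, LDHA, PGK1, TPI1 and GPI step down from control and Nap only to vehicle control to P4.

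The transporters did not move together. SLC2A1 (ENSG00000117394.22, chromosome 1, 42925375 to 42959176), the basal glucose carrier GLUT1, measured 56.6, 58.1 and 60.7 CPM under vehicle and 77.9, 108 and 96 CPM under P4. Every P4 treated culture lay above every vehicle control, and the lowest of them lay just below the highest control culture, at 78.4 CPM. Control cultures averaged 71.6 ± 6.7 CPM, against 58.5 ± 2.05 CPM under vehicle (SD, n = 3 each), and the Nap only cultures measured 65.6 and 55.8 CPM. Against control cultures no tested glucose transporter rose by more than 0.37 on the log2 scale, which is under 1.5-fold. The lowest value there was -2.25, for SLC2A12. For SLC2A1 against vehicle, the values were as follows. The log2 fold change was 0.67 (SE 0.10, edgeR adjusted p = 1.7e-04). SLC2A12 (ENSG00000146411.5, chromosome 6, 133988697 to 134052636), the carrier GLUT12, measured 7.65, 9.65 and 8.76 CPM under vehicle and 4.03, 1.46 and 2.21 CPM under P4. The groups did not overlap, and P4 treated culture 1 stood above the other P4 treated cultures. Its log2 fold change was -1.82 (SE 0.27, edgeR adjusted p = 1.1e-04), and 1736 bases of its exons lie opposite those of TBPL1.

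SLC2A8, an intracellular carrier, was lower with a log2 fold change of -0.50 (SE 0.13, edgeR adjusted p = 0.00655), which became -0.41 (adjusted p = 0.0565) without vehicle control culture 2. SLC2A10 at 1.68 ± 0.191 CPM under vehicle and 2.06 ± 0.214 CPM under P4, and the insulin-responsive SLC2A4 at 0.801 ± 0.21 and 0.782 ± 0.498 CPM (SD, n = 3 each), were not called. SLC2A3, the high-affinity carrier GLUT3, was counted at most 4 times in any library with a group. Per kilobase, SLC2A1 supplied 68.5% ± 1.89 of the summed RPKM of the 6 carriers in vehicle controls and 84.8% ± 3.45 in P4 treated cells, while SLC2A12 went from 10.7% ± 0.86 to 2.59% ± 1.66 and SLC2A8 from 17.7% ± 1.28 to 9.9% ± 0.934. Each of these differences reached the exact permutation p = 0.1 that is the smallest possible here.

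After hexokinase, the genes GPI and TPI1 were lower, and those of phosphofructokinase and aldolase gave mixed calls or none. GPI (ENSG00000105220.17, chromosome 19, 34359480 to 34402413), which turns glucose 6-phosphate into fructose 6-phosphate, measured 293, 293 and 315 CPM under vehicle and 196, 181 and 189 CPM under P4. The P4 treated cultures were all lower, with a log2 fold change of -0.68 (SE 0.06, edgeR adjusted p = 3.3e-06). TPI1 (ENSG00000111669.15, chromosome 12, 6867119 to 6870948), which interconverts the triose phosphates, measured 397, 373 and 387 CPM under vehicle and 271, 235 and 250 CPM under P4. Its log2 fold change was -0.63 (SE 0.07, edgeR adjusted p = 1.1e-05), and its pseudogenes held 22% as many counts as the gene itself.

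Of the phosphofructokinase genes, PFKP, the platelet form, was higher by 0.30 on the log2 scale (SE 0.07, edgeR adjusted p = 0.00301) and PFKL, the liver form, was lower at -0.21 (SE 0.07, edgeR adjusted p = 0.0194). The PFKL call was lost in 8 of 13 alternatives, among them the omission of vehicle control culture 1, 2 or 3 or of P4 treated culture 2 or 3, with adjusted p up to 0.11. PFKM, the muscle form, measured 102 ± 2.82 CPM under vehicle and 100 ± 5.5 CPM under P4 and was not called (95% interval of the log2 fold change -0.17 to 0.10). PFKP supplied 40.1% ± 0.116 of the summed phosphofructokinase RPKM in vehicle controls and 46.9% ± 1.99 in P4 treated cells. The aldolases were not called either. ALDOC, the form known from brain, was at 7.37 ± 1.63 and 9.59 ± 0.51 CPM and reached an adjusted p = 0.0482 from edgeR without vehicle control culture 3. ALDOA was at only 9.64 ± 1.39 and 9.75 ± 1.19 CPM, and 2 pseudogenes named after it held 123% as many counts. Another 1657 bases of its exons are shared with AC093512.2 on the same strand, so that its level and its share are uncertain.

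The enzymes that set fructose 2,6-bisphosphate, the main activator of phosphofructokinase, changed in composition. PFKFB2 (ENSG00000123836.15, chromosome 1, 207034366 to 207081024), the form known from heart and kidney, measured 56.4, 50.9 and 51.9 CPM under vehicle and 120, 121 and 120 CPM under P4. The P4 treated cultures were close to each other and far above the highest vehicle control. Its log2 fold change was 1.17 (SE 0.07, edgeR adjusted p = 7.4e-08). PFKFB3, the inducible form, was at 20 ± 1.14 and 17.5 ± 0.181 CPM and was not called. PFKFB4 fell by 0.51 on the log2 scale (SE 0.15, edgeR adjusted p = 0.0135), a call lost in 4 of 13 alternatives. It was lost without vehicle control culture 3 (-0.35, adjusted p = 0.111), without P4 treated culture 3 (-0.45, adjusted p = 0.068), in DESeq2 (adjusted p = 0.0652) and with all 4 groups in the edgeR fit (adjusted p = 0.143). TIGAR, which breaks fructose 2,6-bisphosphate down, was lower than in vehicle controls with a log2 fold change of -0.47 (SE 0.10, edgeR adjusted p = 0.0016). Its level was 15.8 ± 0.332 CPM under P4 and 21.5 ± 0.904 CPM under vehicle but 16.2 ± 2.22 CPM in control cultures, and it was not called against control (-0.05) or Nap only cultures (-0.03). PFKFB2 supplied 51.3% ± 1.87 of the summed RPKM of the 3 PFKFB genes in vehicle controls and 74.4% ± 0.396 in P4 treated cells, and that sum went from 10.2 ± 0.526 to 15.8 ± 0.102 RPKM.

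**Figure D3:**
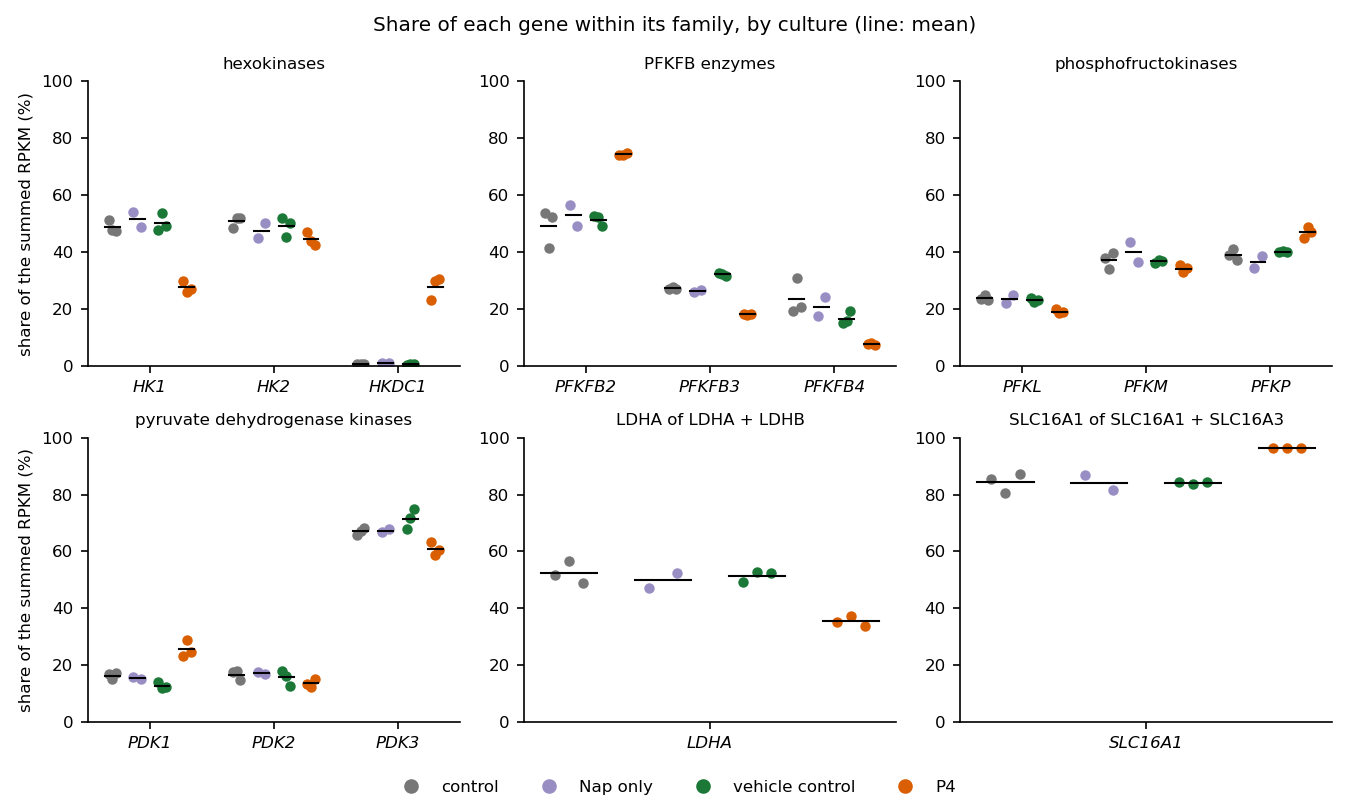
Share of each gene in the summed RPKM of its family, in percent, with a point for each control, Nap only, vehicle control and P4 treated culture and a line at the mean. HKDC1 lay near 0 in all cultures without P4 and between 23% and 30.5% with P4, PFKFB2 lay between 74% and 74.8% with P4, and LDHA lay between 49.1% and 52.8% in vehicle controls and between 33.8% and 37.4% with P4.

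Among the lower glycolytic enzymes 5 of 6 genes were called lower. PKM (ENSG00000067225.18, chromosome 15, 72199029 to 72231822), the pyruvate kinase gene, measured 808, 805 and 821 CPM under vehicle and 417, 362 and 394 CPM under P4. All 3 P4 treated cultures lay far below the lowest vehicle control, and the log2 fold change was -1.07 (SE 0.07, edgeR adjusted p = 1.2e-07). The muscle-type and other products of PKM are counted together. PGK1 (ENSG00000102144.15, chromosome X, 77910739 to 78129296), which makes the first ATP of the pathway, measured 219, 203 and 222 CPM under vehicle and 161, 115 and 132 CPM under P4. The groups did not overlap, and the log2 fold change was -0.67 (SE 0.10, edgeR adjusted p = 1.7e-04). PGAM1 (ENSG00000171314.9, chromosome 10, 97426160 to 97433441), the phosphoglycerate mutase, measured 13.2, 12.8 and 12.9 CPM under vehicle and 9.89, 7.21 and 6.86 CPM under P4. It was lower in all 3 P4 treated cultures, with a log2 fold change of -0.72 (SE 0.15, edgeR adjusted p = 0.00171), and 13 pseudogenes named after it held 8.73% as many counts.

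GAPDH, the triose phosphate dehydrogenase, was at 1777 ± 55 CPM under vehicle and 1516 ± 83.4 CPM under P4 (SD, n = 3 each). The difference was -0.24 on the log2 scale (SE 0.06, edgeR adjusted p = 0.00604), with 62 pseudogenes that held 19.2% as many counts. ENO1, the ubiquitous enolase, was at 710 ± 4.88 and 514 ± 12.8 CPM, a log2 fold change of -0.48 (SE 0.06, edgeR adjusted p = 1.9e-05). ENO2, the enolase known from neurons, went the other way, from 25 ± 2.53 to 34.8 ± 3.28 CPM (log2 fold change 0.44, SE 0.10, edgeR adjusted p = 0.00325). Per kilobase ENO1 still supplied 92.3% ± 0.705 of the enolase sum in P4 treated cells, against 95.8% ± 0.393 in vehicle controls.

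Of the 4 lactate genes 2 were called lower, SLC16A3 with the largest decrease among the members tested. SLC16A3 (ENSG00000141526.16, chromosome 17, 82228397 to 82261129), the lactate exporter MCT4, measured 51.5, 55.2 and 51.7 CPM under vehicle and 13.4, 9.96 and 11.9 CPM under P4. All P4 treated cultures lay far below every other culture, since control and Nap only cultures ranged from 46.7 to 67 CPM. The log2 fold change was -2.19 (SE 0.11, edgeR adjusted p = 2.3e-08), or 4.55-fold lower. LDHA (ENSG00000134333.14, chromosome 11, 18394388 to 18408425), the lactate dehydrogenase subunit that favours lactate formation, measured 190, 205 and 213 CPM under vehicle and 99.2, 94.6 and 94.2 CPM under P4. The P4 treated cultures differed little among themselves, and the log2 fold change was -1.09 (SE 0.07, edgeR adjusted p = 1.2e-07), or 2.13-fold lower.

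LDHB, the subunit that favours pyruvate formation, was at 91.8 ± 3.3 CPM under vehicle and 84.3 ± 7.04 CPM under P4 and was not called (95% interval of the log2 fold change -0.29 to 0.01). LDHA therefore went from 51.4% ± 2.01 of the summed lactate dehydrogenase RPKM to 35.4% ± 1.79. SLC16A1, the widely expressed carrier MCT1, was at 167 ± 1.72 and 192 ± 26 CPM and was not called, although without P4 treated culture 2 its log2 fold change was 0.30 with an adjusted p = 0.00113 from edgeR. It supplied 84.2% ± 0.516 of the summed RPKM of both carriers in vehicle controls and 96.5% ± 0.0497 in P4 treated cells. The exact permutation test gave p = 0.1 for both shares (adjusted 0.138), the smallest possible.

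At the entry of pyruvate into the mitochondrion, MPC1 (ENSG00000060762.19, chromosome 6, 166364919 to 166383013), a subunit of the pyruvate carrier, measured 18.4, 17 and 17.6 CPM under vehicle and 31.4, 32.5 and 32 CPM under P4. All P4 treated cultures were higher than all 8 cultures without P4, which ranged from 16.8 to 19.4 CPM, and the log2 fold change was 0.85 (SE 0.09, edgeR adjusted p = 8.6e-06). Its partner MPC2 was at 32.2 ± 3.46 and 33.6 ± 0.8 CPM and was not called. PDHA1, the catalytic subunit of pyruvate dehydrogenase, was at 59 ± 1.41 and 62.7 ± 2.95 CPM and was not called.

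The kinases that inactivate pyruvate dehydrogenase moved in both directions. PDK1 (ENSG00000152256.13, chromosome 2, 172555373 to 172608669) measured 38.8, 35.6 and 35.3 CPM under vehicle and 59.8, 61 and 53.8 CPM under P4. The groups did not overlap, and the log2 fold change was 0.66 (SE 0.08, edgeR adjusted p = 3.7e-05). PDK3 (ENSG00000067992.15, chromosome X, 24465221 to 24541862) measured 61.8, 71.3 and 71.6 CPM under vehicle and 53.8, 41 and 43.9 CPM under P4. The P4 treated cultures were lower than the vehicle controls but culture 1 lay above the lowest control culture, at 52.2 CPM, and the log2 fold change was -0.59 (SE 0.10, edgeR adjusted p = 5.1e-04). PDK2 was lower with a log2 fold change of -0.52 (SE 0.15, edgeR adjusted p = 0.0114), which became -0.44 (adjusted p = 0.0748) without vehicle control culture 2, and 2113 bases of its exons lie opposite those of SAMD14. PDK1 supplied 12.8% ± 1.2 of the summed kinase RPKM in vehicle controls and 25.7% ± 2.99 in P4 treated cells, and PDK3 71.5% ± 3.6 and 60.7% ± 2.29. The exact permutation test gave p = 0.1 for each, adjusted 0.138.

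The same members were set against the other P4-free groups, to see what the vehicle itself contributed. The comparisons share their P4 treated, vehicle control, control or Nap only cultures, so they are not independent of each other and their values are only given side by side. Against control cultures, P4 treated cells had 8 members higher and 17 lower of 35 tested, where 54.8% of all genes tested were called, 26.8% higher and 28.0% lower. The largest log2 fold changes among the members called were 6.90 (SE 0.38) for HKDC1, -2.29 (SE 0.14) for SLC16A3, -2.25 (SE 0.37) for SLC2A12, -1.56 (SE 0.11) for LDHA and -1.42 (SE 0.10) for PKM. Against Nap only cultures 9 members were higher and 18 lower of 35, where 49.7% of all genes tested were called, 24.8% higher and 24.9% lower. Here the largest were 6.13 (SE 0.46) for HKDC1, -2.28 (SE 0.16) for SLC16A3, -2.19 (SE 0.36) for SLC2A12, -1.45 (SE 0.09) for LDHA and -1.41 (SE 0.09) for PKM. The edgeR adjusted p of these 10 values were at most 5.8e-04. The call differed from that against vehicle for 5 members, picked out after their values had been seen. TIGAR is given above, PFKP was not called against control cultures (0.17), and PFKM was lower against Nap only cultures (-0.29). LDHB and PDHA1, not called against vehicle, were lower against control (-0.54 and -0.24) and Nap only cultures (-0.58 and -0.26).

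Vehicle control cultures already differed from cultures without ethanol. Against control cultures, 1 member was called higher and 12 lower of 34 tested, where 22.6% of all genes tested were called, 11.9% higher and 10.7% lower. The largest log2 fold changes among the members called were -0.59 (SE 0.10) for PGK1, -0.50 (SE 0.16) for PGAM1, -0.49 (SE 0.10) for TPI1, -0.47 (SE 0.10) for GAPDH, and -0.46 for both ENO1 (SE 0.08) and LDHA (SE 0.09), with edgeR adjusted p of at most 0.0329. Without vehicle control culture 2 the number of members called was 8. Against Nap only cultures 3 members were called higher and 12 lower of 34, where 23.8% of all genes tested were called, 12.7% higher and 11.2% lower. The largest among the members called were -0.51 (SE 0.12) for PGAM1, -0.50 (SE 0.06) for PGK1, -0.49 (SE 0.05) for TPI1, 0.45 (SE 0.11) for TIGAR and -0.43 (SE 0.06) for LDHB, with edgeR adjusted p of at most 0.00475. The number of members called was 9 when all 4 groups with a label shared a fit. HKDC1 was too low to be tested in either comparison, and HK1, HK2, PFKFB2, SLC16A3, SLC2A12 and MPC1 were called in neither, with log2 fold changes between -0.42 and 0.18.

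**Figure D4:**
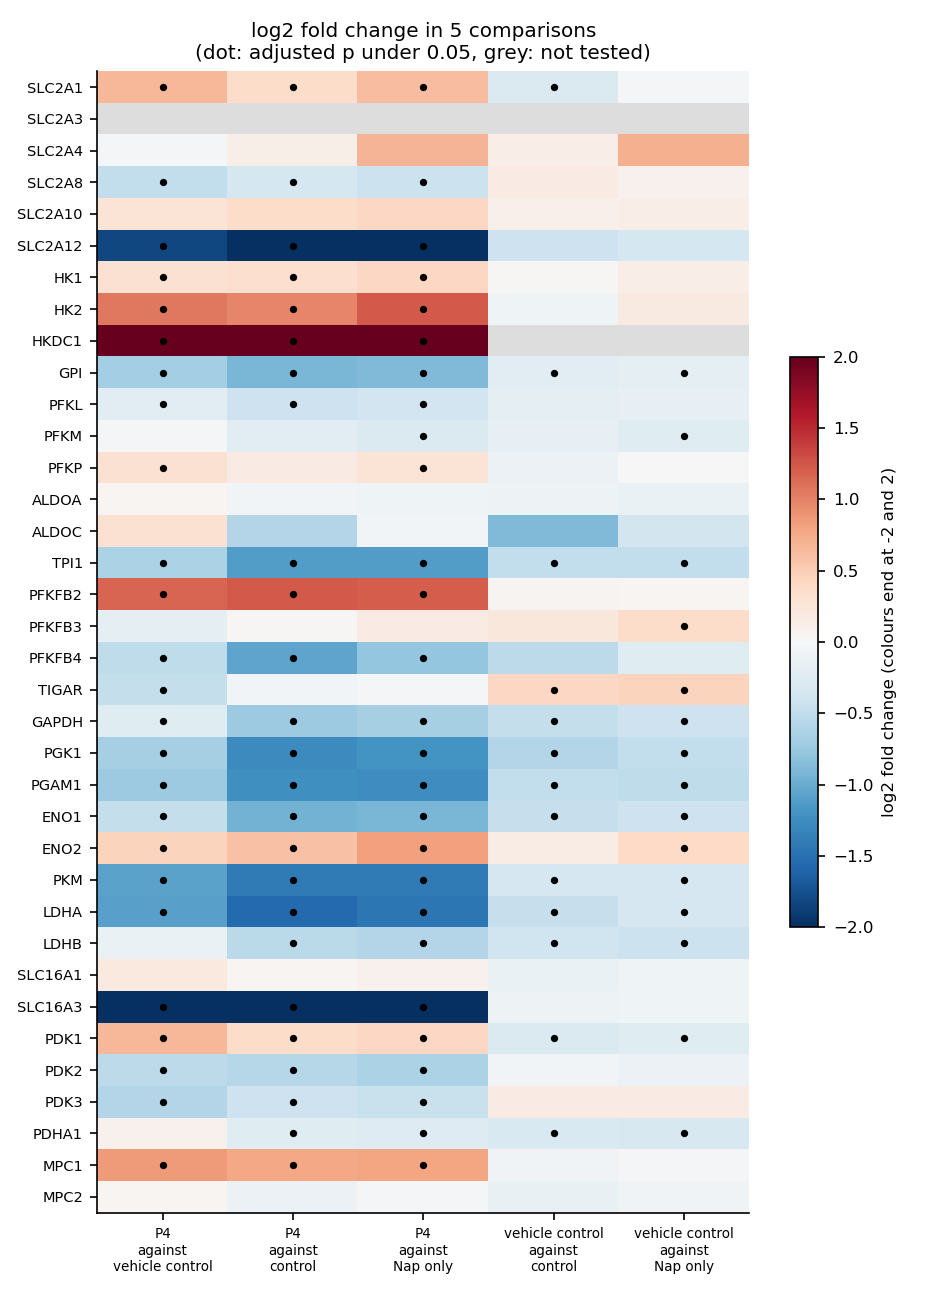
Log2 fold change of the 36 members in the 5 comparisons, in colour from -2 to 2, with a dot where the edgeR adjusted p was under 0.05 and grey where a gene was not tested. GPI, TPI1 and the lower glycolysis genes other than ENO2 are blue in all 5 columns, whereas HK2, PFKFB2 and MPC1 carry a dot only where P4 treated cultures are compared.

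An order was looked for after these values had been seen. In 7 of the 35 tested members every P4 treated culture lay below every vehicle control and every vehicle control below every control and Nap only culture, against 4.99% of all genes tested, and in none was the order reversed, against 4.55%. The 7 were GPI, TPI1, GAPDH, PGK1, ENO1, PKM and LDHA, all enzymes of the main line from glucose 6-phosphate to lactate. They were also the 7 members with the highest mean level under vehicle, from 203 CPM for LDHA to 1777 CPM for GAPDH. The share of all genes tested was not matched for level. PKM ranged from 930 to 1148 CPM in control and Nap only cultures, from 805 to 821 CPM under vehicle and from 362 to 417 CPM under P4. GAPDH ranged from 2169 to 2910 CPM, from 1742 to 1841 CPM and from 1428 to 1594 CPM in the same order. PGK1 went from 273 to 383 CPM down to 203 to 222 CPM and 115 to 161 CPM. Counts of the 36 members together made up 0.697% to 0.794% of a control library, 0.724% to 0.753% of a Nap only library, 0.552% to 0.57% of a vehicle control library and 0.377% to 0.435% of a P4 treated library. Such a sum is weighted by level and mostly reflects the same 7 genes. Under vehicle all members summed to 5445 to 5641 CPM, of which GAPDH alone held 1742 to 1841 CPM. It does not describe each member, since 9 were called higher under P4 than under vehicle.

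Other genes of glucose use, 94 in 9 lists, of which 72 were tested for P4 against vehicle, gave 32 higher and 15 lower, with a median log2 fold change of 0.17. With 53.0% of all genes tested called, 26.6% higher and 26.5% lower, and only 3 to 16 genes tested in a list, the counts of single lists say little beyond that background. The list of hypoxia-responsive genes outside glycolysis held 11 higher and 1 lower of 13 tested, with a median log2 fold change of 0.70 against -0.01 for all genes tested. Against control and against Nap only cultures it held 7 higher and 1 lower of 13, where 26.8% and 24.8% of all genes tested were higher. By its definition the list leaves out the glycolysis members, of which 9 were called higher and 16 lower against vehicle. It is therefore not a count of all hypoxia-responsive genes, and a part of oxygen supply was not tested. The list was chosen with earlier results of these data known, so its counts are a description and not independent evidence. VEGFA, the angiogenic growth factor, went from 91.5 ± 5.61 to 412 ± 53.6 CPM (log2 fold change 2.15, SE 0.09, edgeR adjusted p = 7.1e-09). DDIT4, a stress-induced inhibitor of mTORC1 that is also known to respond to steroid hormones, went from 99.7 ± 5.55 to 324 ± 53.2 CPM (1.69, SE 0.10, edgeR adjusted p = 9.5e-08). CA12, a carbonic anhydrase, was the exception, from 13 ± 1.34 to 5.46 ± 1.68 CPM (-1.30, SE 0.19, edgeR adjusted p = 1.2e-04). NDRG1, also in the list, rose by 3.21 on the log2 scale against vehicle (SE 0.38, edgeR adjusted p = 5.3e-05) and was picked out after its values had been seen. No tested gene of the list rose by more than 2.05 against control cultures or 2.52 against Nap only cultures.

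Among 16 regulators of glucose use 7 were called higher and 3 lower, where 26.6% and 26.5% of all genes tested were. TXNIP, an arrestin-like inhibitor of glucose uptake whose transcription follows glucose supply, was at 21.4 ± 2.13 CPM under vehicle and 3.53 ± 0.801 CPM under P4 (log2 fold change -2.59, SE 0.16, edgeR adjusted p = 1.2e-07). Its relative ARRDC4 went from 18.7 ± 2.37 to 7.23 ± 1.39 CPM (-1.35, SE 0.15, edgeR adjusted p = 1.3e-05). MYC went from 69.2 ± 4.32 to 106 ± 5.7 CPM (0.60, SE 0.07, edgeR adjusted p = 3.2e-05). TXNIP, singled out after its values had been seen, was also lower in vehicle control than in control cultures, at 55.6 CPM in the latter (-1.39, SE 0.17, edgeR adjusted p = 7.8e-04).

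Around pyruvate, 3 of 8 genes of the pyruvate dehydrogenase complex and its regulators were higher and 1 lower, and against control cultures 3 were higher and 3 lower. PDP1, the phosphatase that reactivates the complex, went from 29.8 ± 2.42 to 80.2 ± 16.3 CPM (log2 fold change 1.43, SE 0.13, edgeR adjusted p = 2.7e-06), PDHX rose by 0.67 on the log2 scale (SE 0.09, edgeR adjusted p = 5.0e-05) and DLAT fell by 0.39 on the log2 scale (SE 0.10, edgeR adjusted p = 0.00549). Of 5 tested genes of gluconeogenesis 1 was higher and 2 were lower. Against vehicle, 53.0% of all genes tested were called, and the counts of both lists say little beyond that. PCK2, the mitochondrial phosphoenolpyruvate carboxykinase, went from 20.2 ± 1.42 to 78.2 ± 9.83 CPM (1.93, SE 0.11, edgeR adjusted p = 5.2e-08), whereas PC, pyruvate carboxylase, changed by -0.78 (SE 0.10, edgeR adjusted p = 3.6e-05) and SLC37A4, the glucose 6-phosphate carrier of the endoplasmic reticulum, by -0.51 (SE 0.10, edgeR adjusted p = 0.00101).

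The pentose phosphate pathway had 4 genes higher and 2 lower of 8, with a median log2 fold change of 0.21. Against control cultures 2 were higher and 2 lower. On the log2 scale RPE and H6PD were higher than in vehicle controls by 0.26 (SE 0.07, edgeR adjusted p = 0.00592) and 0.52 (SE 0.15, edgeR adjusted p = 0.011). In glycogen metabolism 5 of 10 genes were higher and 3 lower. For both lists the shares of all genes tested against vehicle were 26.6% higher and 26.5% lower. UGP2 and PGM1, which make UDP-glucose and glucose 1-phosphate, were higher by 0.66 on the log2 scale (SE 0.11, edgeR adjusted p = 2.1e-04) and 0.54 (SE 0.08, edgeR adjusted p = 1.1e-04), and the synthase GYS1 changed by -0.90 (SE 0.11, edgeR adjusted p = 2.0e-05).

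Among the other carriers of the SLC2A family and SLC5A1, 4 of 9 were tested, with SLC2A13 higher by 0.61 on the log2 scale (SE 0.08, edgeR adjusted p = 3.7e-05) and SLC2A6 changed by -1.08 (SE 0.15, edgeR adjusted p = 7.5e-05). Of the other glycolytic isoenzymes 5 of 16 were tested and 2 were called, ENO3 at -0.61 (SE 0.15, edgeR adjusted p = 0.00527) and MINPP1 at -0.49 (SE 0.09, edgeR adjusted p = 4.9e-04). HK3 and PKLR averaged at most 0.0895 CPM in either group. No call was made among the 3 tested genes of other lactate transport, including BSG, the chaperone of the monocarboxylate carriers, at 261 ± 6.79 and 253 ± 7.54 CPM.

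**Figure D5:**
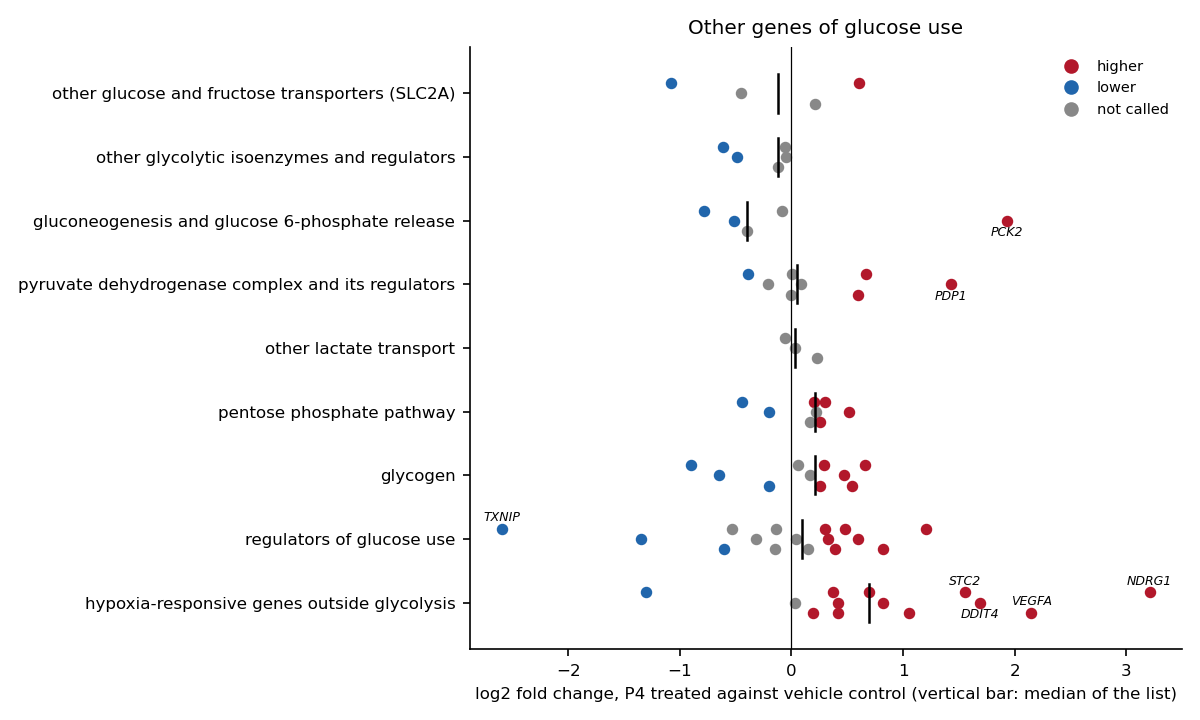
Log2 fold change between P4 treated and vehicle control cultures of 72 tested genes in 9 lists, a point for each gene coloured by its call and a bar at the list's median. The hypoxia-responsive list lies mostly to the right of 0, with NDRG1 at 3.21, and TXNIP lies furthest to the left at -2.59.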

How the data were processed

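Gene-level counts of RNA-seq libraries from Ishikawa cells were analysed. Per the labels and the study's methods, the authors made stranded total RNA libraries, sequenced single-end 75 bp reads on a NextSeq 500, trimmed them with cutadapt, kept reads with at least 90% of bases at a quality of 20 or more, aligned them with Subread and deposited raw counts of uniquely mapped reads per GENCODE release 31 gene from featureCounts. The strand setting of the counting is not given in the sources used here. Reads shared with pseudogenes, paralogs or overlapping genes may therefore be lost or misassigned, and mitochondrial MT-RNR2 took 20.2% to 27.1% of a library with a group.

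Gene names came from GENCODE 29 for 58587 identifiers and from a gene name table for 2054, and 21 had none. Groups were taken from the labels. Every column of the table entered the scaling of the printed levels, but the 6 libraries given PSAT1 entered no comparison. Counts were tested with the edgeR (4.0.16, R 4.3.3) quasi-likelihood test with TMM scaling, filterByExpr at a minimum count of 10, a robust fit and only the groups compared. P-values were adjusted by Benjamini-Hochberg over all genes tested and called under 0.05. A standard error is the log2 fold change divided by the square root of F. Levels are CPM scaled by TMM over all libraries, and RPKM divides these by the exonic length from GENCODE 29. A level of 3 counts corresponded to 0.156 to 0.574 CPM. Shares within a family were compared by exact permutation tests (scipy 1.17.1). P-values measure the spread between cultures of 1 cell line.

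Members past 1.5-fold and called between P4 treated and vehicle control cultures, up to 12 in each direction, are given by culture. In other comparisons the 5 largest changes called are named, and of each list the 2 genes called higher and the 2 called lower with the smallest adjusted p, apart from some genes that are not reported here. The members and lists were chosen with earlier results of these data known. Alternatives were DESeq2 (1.42.0), upper-quartile scaling, other filters, all 4 groups in a fit, a replicate block and the omission of each culture. The scripts were tested on simulated data.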

Additional observations from a re-analysis of the deposited data

Results flagged for a closer look

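In the 6 libraries given PSAT1, whose titles and column names disagree and which entered no comparison, HKDC1 reached 39.2 CPM, where the highest of the 8 cultures labelled as without P4 held 0.536 CPM. HK2 reached 84.7 CPM against 39.4 CPM, and PFKFB2 129 CPM against 56.4 CPM. For each of the 3 genes, 3 of the 6 libraries lay above that level, and they were those whose column names contain P4. These were noticed because the signal lies in libraries outside the comparisons and above the level of the cultures without P4, and the difference was not tested.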

How the results depend on the processing

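Between P4 treated and vehicle control cultures the number of members called was 22 to 25 when each culture was left out in turn (8 to 9 higher, 13 to 16 lower), and 40 to 52 list genes were called. It was 22 to 23 against control and 19 to 26 against Nap only cultures. Comparisons with the vehicle control moved more. Against control cultures, leaving out a culture gave 8 to 16 members called, 0 to 4 of them higher, and 8 to 19 list genes, where 15 were called with all cultures. Against Nap only cultures it gave 1 to 4 members higher and 7 to 18 list genes. There DESeq2 called 0 members higher and 8 list genes, and a fit of all 4 groups called 1 member higher, 9 members in all and 7 list genes, where 3, 15 and 16 were called. The sign turned only for members without a call. SLC2A4 (log2 fold change -0.02) gave 0.00 without the filter, 0.07 without vehicle control culture 1, 0.14 without vehicle control culture 2 and 0.40 without P4 treated culture 2 (range over left-out cultures -0.45 to 0.40). PFKM (-0.04) gave 0.02 without P4 treated culture 2. ALDOA (0.04) gave -0.04 under upper-quartile scaling and -0.06 without vehicle control culture 2 or P4 treated culture 3 (range -0.06 to 0.13). PDHA1 (0.08) gave -0.01 and MPC2 (0.04) -0.05 under upper-quartile scaling, and MPC2 gave -0.03 without vehicle control culture 2. The share of SLC2A4 among the carriers differed by -0.223 points (range -0.545 to 0.0933 when a culture was left out) and that of SLC2A10 by -0.0683 points (range -0.307 to 0.0702). The causes were not tested. HK1 lost its call under upper-quartile scaling (adjusted p = 0.122). Upper-quartile scaling moved the median of all genes from -0.013 to -0.101 and the share of calls that were higher from 50.1% to 40.7%. The replicate numbers gave no sign of pairing between P4 treated and vehicle control cultures, where same-numbered cultures deviated with correlations of 0.0358, 0.0487 and -0.0434. Control and Nap only cultures were not checked against each other in this way. With a replicate block 25 members were called (9 higher, 16 lower), and 23, 22, 15 and 15 in the other comparisons, in the order given in the report. Depth limits SLC2A3, too low to be tested, and HKDC1, which rests on 1 to 5 counts in each vehicle control.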

Other observations

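The 6 libraries given PSAT1 are listed by the name of their column, since their titles assign P4 the other way round. HKDC1 measured 26.8, 39.2 and 36.3 CPM in the columns that name P4 and 0.446, 0.333 and 0.294 CPM in those that do not. LDHA measured 95.7, 84.6 and 96.4 CPM and 263, 266 and 238 CPM, and PKM 416, 375 and 373 CPM and 1007, 992 and 1011 CPM. SLC16A3 measured 12.8, 12.1 and 9.05 CPM and 50.6, 69.3 and 69.3 CPM. Over the 36 members, the columns that name P4 were lower without overlap for 20, higher for 8 and overlapping for 8. The share of all genes without overlap was not determined for these columns. Between P4 treated and vehicle control cultures it was 60.3%, so these counts cannot be read as particular to the members. Which of both labels is right was not settled here, and no test was made.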
